A study of Homo sapiens with 6 samples.

Results

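The lysosome genes described here are 122 of the 123 genes whose pathway annotation in the deposited tables carries the KEGG term Lysosome. IGF2R also carries the term and was left out. In all, 20030 genes are listed and 7246 have any pathway term. Apart from that omission, membership came from the annotation, and no measured value entered it. The choice of this term and of its classes was made with earlier results of these data known. RNA of the multiple myeloma cell line labelled H929 (NCI-H929 in the study) was sequenced in 6 libraries, 3 labelled as IGF2BP1 negative control (IGF2BP1-NC) and 3 as IGF2BP1 knockdown (IGF2BP1-KD), and the comparison asks which lysosome transcripts differ when this RNA-binding protein is depleted. Per the study's methods, the knockdown lines were made with a lentiviral vector that expresses a short hairpin RNA from the U6 promoter and were selected with puromycin as stable lines. More than 1 hairpin is listed there, and the labels do not say which the libraries carry, nor whether the libraries came from separate cultures, so the p-values measure only the spread between these libraries.

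Lysosomes are acidic, membrane-bound compartments in which macromolecules from endocytosis and autophagy are degraded. Soluble hydrolases cut proteins, sugars, sulfate esters, lipids and nucleic acids, a proton pump, the vacuolar ATPase (V-ATPase), keeps the lumen acidic, and membrane proteins and transporters guard the membrane and export the products. New hydrolases are tagged with mannose 6-phosphate in the Golgi and carried onward by receptors, clathrin and adaptor complexes. Many of these genes are known to share a short E-box element near their start, called the CLEAR element, which is bound by TFEB, TFE3 and MITF, the MiT/TFE transcription factors. Plasma cells, the cells from which myeloma arises, are secretory cells in which protein degradation is a known vulnerability.

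Total counts per library lay between 16885449 and 18112179, and a count of 0 in a library allows up to 3 counts, an amount that covers counting error only. The knockdown was visible in every library: IGF2BP1 was measured at 48.1, 43.7 and 49.1 FPKM in the IGF2BP1-NC libraries and 13.5, 12.9 and 12.8 FPKM in the IGF2BP1-KD libraries, where FPKM is the number of fragments scaled by the length of the gene and the size of the library. Its log2 fold change of IGF2BP1-KD over IGF2BP1-NC was -1.85 (SE 0.065, edgeR adjusted p = 4.81e-08). All such values are from a quasi-likelihood fit in edgeR over every gene tested, with Benjamini-Hochberg adjustment, and a positive value means a higher level in IGF2BP1-KD. Of 10 plasma cell markers, 3 were above 1 CPM (counts scaled by library size and its TMM normalisation factor) in all 6 libraries. TNFRSF17, IRF4, CD38 and POU2AF1 had at most 3 counts in every library, whereas all 10 erythroid markers were above 1 CPM in all 6 libraries. The erythroid markers ranged from AHSP at 18.9 to 34.1 CPM up to HBE1 at 4459 to 5417 CPM, with GATA1 at 238 to 293 CPM. TNFRSF17, IRF4, CD38 and POU2AF1 were thus at or near 0 in these libraries, which are called here by their labels. The 3 plasma cell markers above 1 CPM were XBP1 (36.5 to 83.5 FPKM), SDC1 (2.00 to 3.53 CPM) and PRDM1 (1.68 to 3.42 CPM). SLAMF7 was at 0.224 to 0.290 CPM in IGF2BP1-NC and 2.48 to 10.3 CPM in IGF2BP1-KD. It was called higher, with a log2 fold change of 4.37 (SE 0.80, edgeR adjusted p = 0.00878). MZB1 and JCHAIN had at most 27 and 10 counts in a library.

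IGF2BP1-KD library 3 stood apart from the other IGF2BP1-KD libraries. It was the highest of the 3 for 4383 of the 11994 genes tested (36.5%), but for 70 of the 108 lysosome genes tested (64.8%). Among 10 granulocyte and mast cell markers, 3 of 5 tested rose (PRG2, MS4A3 and EPX), and their summed level was 27.5 to 37.7 CPM in IGF2BP1-NC and 198 to 498 CPM in IGF2BP1-KD, with the highest sum in IGF2BP1-KD library 3, while CPA3 and TPSB2 had at most 1 count in any library. The summed level of 10 monocyte and macrophage markers was 29.7 to 40.3 CPM in IGF2BP1-NC and 36.7 to 50.1 CPM in IGF2BP1-KD, with 0 of 3 tested called (0 at an unadjusted p under 0.05 in edgeR and 0 called by DESeq2 or limma-voom), MARCO at 0, and CSF1R, CD163 and MRC1 at 5 counts or fewer. The part of these granulocyte transcripts in the results on lysosome genes was not tested. In bulk RNA, fewer cells of a type and less RNA per cell cannot be told apart.

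More lysosome genes rose than fell in IGF2BP1-KD. Of the 122 genes, 108 passed the filter on low counts, and 40 of these were higher (37.0%) and 9 were lower (8.33%) at an edgeR adjusted p under 0.05, against 13.7% higher and 14.5% lower among all 11994 genes tested. The median log2 fold change was 0.18 for the lysosome genes tested and -0.0048 for all genes tested, and 76 of the 108 values were above 0. A change of at least 2-fold was found for 7 genes that rose (LAPTM5, LITAF, GM2A, CTSS, CTSB, GAA and ARSG) and 2 that fell (LAPTM4B and CTSH). For all genes tested, 3.06% rose and 1.67% fell by that much. The normalised CPM values of IGF2BP1-NC and IGF2BP1-KD did not overlap for 48 of the 108 genes in the higher direction and 15 in the lower, against 22.4% and 23.2% of all genes tested. With IGF2BP1-KD library 3 left out, 37 were higher, among them 35 of the 40, and 6 were lower, beside 10.1% and 10.3% of the 12106 genes then tested, and 7 changed at least 2-fold (LAPTM5, LITAF, CTSS, ARSG and ACP5 upward, LAPTM4B and CTSH downward). The count of genes changed at least 2-fold was 5 without IGF2BP1-NC library 1 and 5 without IGF2BP1-NC library 3.

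**Figure D1:**
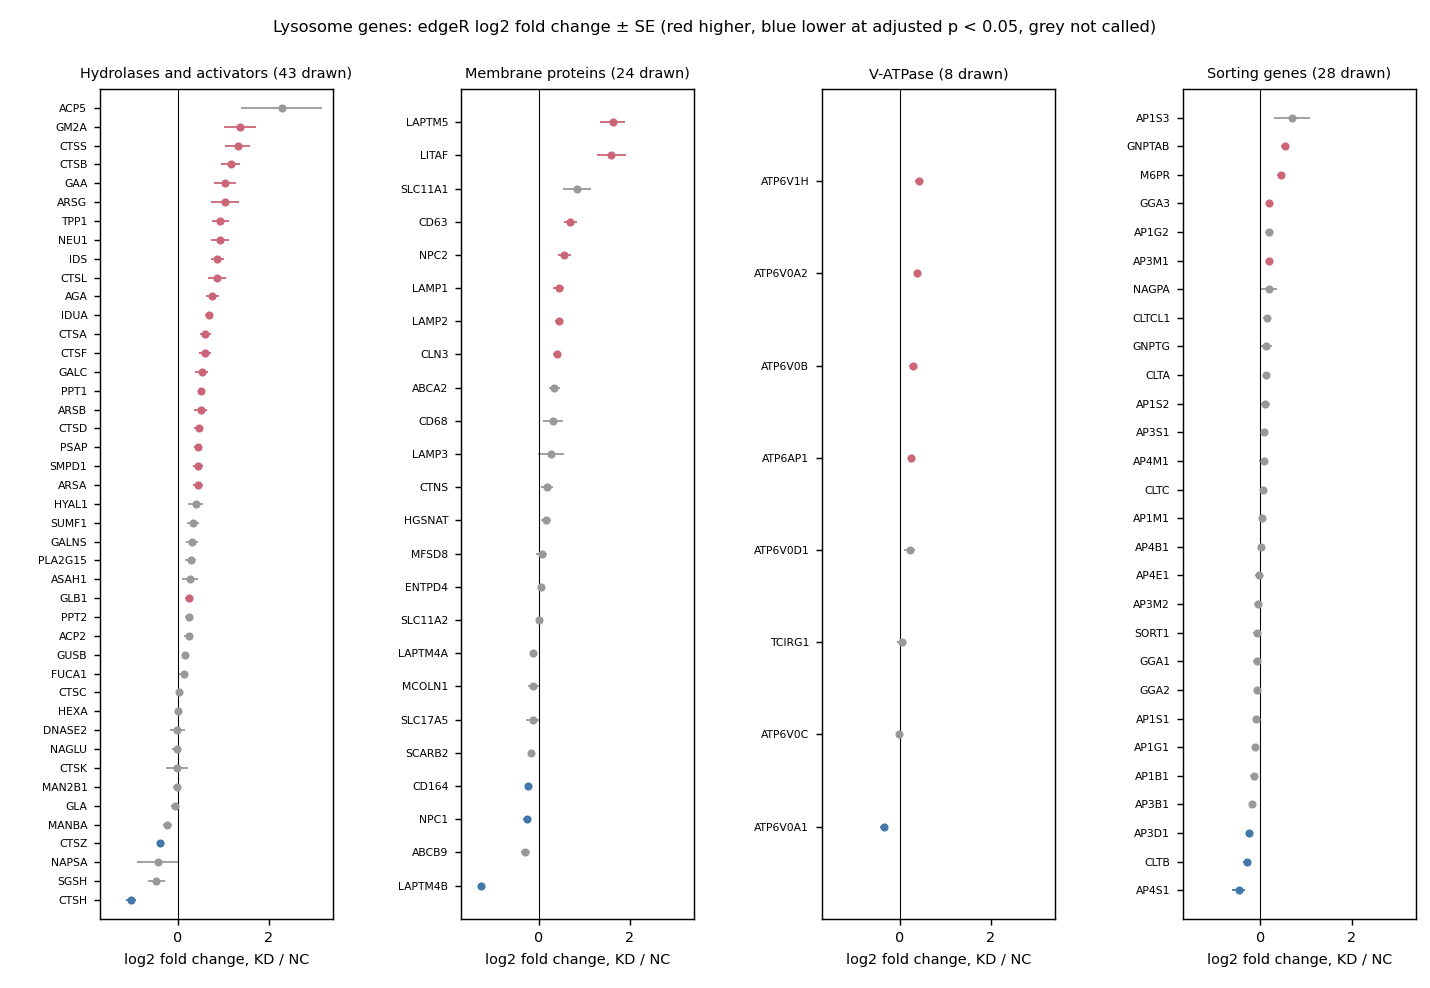
Log2 fold change (IGF2BP1-KD over IGF2BP1-NC, edgeR) of 103 of the 108 lysosome genes tested, in 4 panels by class, with bars of 1 SE. Red points were higher and blue points lower at an adjusted p under 0.05, and 21 of the 43 hydrolases and activators drawn are red while 21 of the 28 sorting genes are grey.

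The share of genes that rose varied by class, and the difference between classes was not tested. The counts in this and later paragraphs stand beside 13.7% higher and 14.5% lower among all 11994 genes tested. Among the hydrolases and their activators, 25 of 47 tested rose (53.2%) and 2 fell (4.26%), with a median log2 fold change of 0.44. Membrane proteins and transporters had 7 of 25 higher (28%) and 3 lower (12%), with a median of 0.18. The V-ATPase had 4 of 8 tested higher (50%) and 1 lower (12.5%), with a median of 0.23. Sorting genes had 4 of 28 tested higher (14.3%) and 3 lower (10.7%), with a median of 0.051. The share of sorting genes that rose was thus near that of all genes tested. Without IGF2BP1-KD library 3 the medians were 0.35 for hydrolases, 0.10 for membrane proteins, 0.20 for the V-ATPase and 0.011 for sorting genes.

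Summed over all 56 hydrolases and activators, the level was 1186, 1252 and 1237 FPKM in the IGF2BP1-NC libraries and 1502, 1513 and 1892 FPKM in the IGF2BP1-KD libraries. Every IGF2BP1-KD sum exceeded every IGF2BP1-NC sum, and library 3 was the highest. For the 25 membrane proteins the sums were 565, 608 and 577 FPKM in the IGF2BP1-NC libraries and 673, 687 and 831 FPKM in the IGF2BP1-KD libraries, again without overlap. The 10 V-ATPase genes summed to 370.0, 418 and 409 FPKM in the IGF2BP1-NC libraries and 436, 425 and 446 FPKM in the IGF2BP1-KD libraries, and the 31 sorting genes to 612, 625 and 637 FPKM in the IGF2BP1-NC libraries and 641, 638 and 665 FPKM in the IGF2BP1-KD libraries. In both classes the groups did not overlap, but the gap between them was smaller than the range within either group. PSAP alone, at a mean of 305 FPKM over the 6 libraries, had the highest level of the 122 genes.

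**Figure D2:**
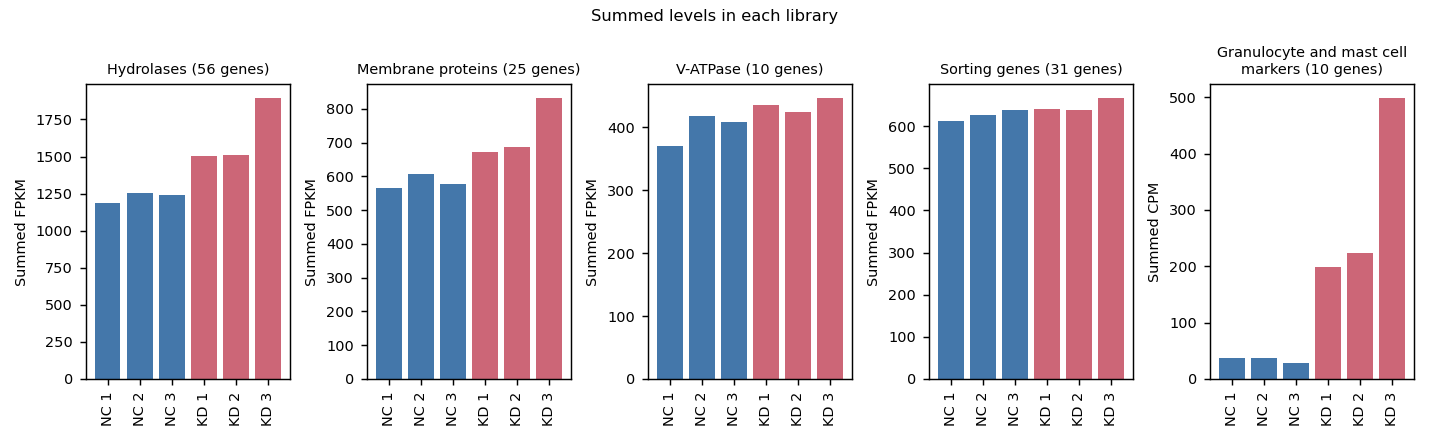
Summed FPKM of the hydrolases, membrane proteins, V-ATPase and sorting genes in each library, with the summed CPM of the 10 granulocyte and mast cell markers in the last panel. Each bar is 1 library and every axis starts at 0, and the hydrolase sum of IGF2BP1-KD library 3 is 1892 FPKM beside 1186 to 1252 FPKM in IGF2BP1-NC.

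The promoters of 4 genes are printed because they hold the core of the CLEAR element, 3 of genes called higher (GAA, LAMP1 and CTSA) and 1 of a gene not called (MCOLN1), and they were chosen after the matches were seen. GAA encodes acid alpha-glucosidase, which breaks down glycogen, LAMP1 an abundant glycoprotein of the lysosomal membrane, CTSA the protective protein cathepsin A, and MCOLN1 the lysosomal calcium channel TRPML1. The sequences are RefSeq promoters of GRCh38.p14, 250 bases before to 50 after the annotated start, written 5′ to 3′ along the gene's strand, at chr17:80101331-80101630, plus strand for GAA, chr13:113296989-113297288, plus strand for LAMP1, chr20:45891085-45891384, plus strand for CTSA and chr19:7522374-7522673, plus strand for MCOLN1. Capitals mark each CACGTG E-box, or the 8 bases TCACGTGA where the E-box lies within them.
GAA: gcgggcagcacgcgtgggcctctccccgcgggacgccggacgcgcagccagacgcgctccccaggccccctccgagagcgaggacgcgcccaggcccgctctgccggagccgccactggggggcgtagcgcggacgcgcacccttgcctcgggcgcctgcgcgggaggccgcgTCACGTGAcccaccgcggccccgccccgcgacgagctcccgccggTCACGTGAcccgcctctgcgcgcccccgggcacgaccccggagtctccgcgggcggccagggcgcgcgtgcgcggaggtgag
LAMP1: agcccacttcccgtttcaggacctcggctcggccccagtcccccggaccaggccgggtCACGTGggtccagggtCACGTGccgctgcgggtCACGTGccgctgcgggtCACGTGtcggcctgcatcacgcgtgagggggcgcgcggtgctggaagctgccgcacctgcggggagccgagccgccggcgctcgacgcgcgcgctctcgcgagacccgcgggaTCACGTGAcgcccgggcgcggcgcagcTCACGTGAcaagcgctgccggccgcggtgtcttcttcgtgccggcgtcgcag
CTSA: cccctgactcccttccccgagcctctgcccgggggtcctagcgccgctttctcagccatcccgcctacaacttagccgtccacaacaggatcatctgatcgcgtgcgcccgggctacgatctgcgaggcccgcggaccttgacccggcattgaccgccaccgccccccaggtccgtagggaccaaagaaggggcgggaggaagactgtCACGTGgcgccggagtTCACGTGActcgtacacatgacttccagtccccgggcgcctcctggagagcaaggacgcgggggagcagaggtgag
MCOLN1: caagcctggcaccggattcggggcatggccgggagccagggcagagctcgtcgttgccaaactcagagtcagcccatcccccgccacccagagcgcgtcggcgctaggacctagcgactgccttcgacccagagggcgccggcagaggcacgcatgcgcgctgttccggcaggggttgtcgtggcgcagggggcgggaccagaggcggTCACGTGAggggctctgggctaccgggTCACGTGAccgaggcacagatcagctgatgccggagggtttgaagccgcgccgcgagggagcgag

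GAA and MCOLN1 each held 2 copies of the 8-base core, LAMP1 held 2 copies and 4 further E-boxes, and CTSA held 1 copy and 1 further E-box. A RefSeq promoter was matched for 92 of the 122 lysosome genes. The palindrome CACGTG was found in 19 of them (20.7%) and in 7.43% of all 27305 promoters. Among tested genes alone it was in 19 of 82 lysosome promoters (23.2%) and in 10.4% of the 9870 promoters. TCACGTGA, also a palindrome and one that contains CACGTG, was found in 10 of the 92 (10.9%) and in 1.04% of all promoters. Among tested genes it was in 10 of the 82 (12.2%) and in 2.02% of the promoters. Of the 32 E-boxes in lysosome promoters, 21 lay within 100 bases upstream of the start.

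The E-box was present in genes that rose and in genes that did not. It was in 9 of the 30 matched promoters of lysosome genes that rose (ATP6V0B, CD63, CLN3, CTSA, CTSD, CTSF, GAA, LAMP1 and NEU1), 9 of the 45 with no called change and 1 of the 7 that fell (CD164). The 8-base core was in 4 of the 30, 5 of the 45 and 1 of the 7. These are matches of letters in a window, and binding was not measured.

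The transcripts of the MiT/TFE factors were not called by edgeR, DESeq2 or limma, and TFE3 alone had an unadjusted edgeR p under 0.05. TFEB was measured at 0.526, 0.618 and 0.518 FPKM in the IGF2BP1-NC libraries and 0.849, 0.507 and 0.745 FPKM in the IGF2BP1-KD libraries, a low level with overlapping groups, and its log2 fold change was 0.33 (SE 0.26, edgeR adjusted p = 0.378). TFE3 stood at 22.9, 16.9 and 17.1 FPKM in IGF2BP1-NC and 14.8, 14.3 and 17.6 FPKM in IGF2BP1-KD, also overlapping, with a log2 fold change of -0.29 (SE 0.12, edgeR adjusted p = 0.106). For MITF the values were 6.07, 4.95 and 5.18 FPKM in IGF2BP1-NC and 5.54, 4.89 and 4.30 FPKM in IGF2BP1-KD, with a log2 fold change of -0.15 (SE 0.11, edgeR adjusted p = 0.341). TFEC had at most 2 counts in any library. The protein and its location in the cell were not measured.

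Proteases made up 18 of the hydrolases, 15 of them cathepsins, the endo- and exopeptidases of the lysosome. Of 12 proteases tested, 7 rose (58.3%) and 2 fell (16.7%), beside 13.7% and 14.5% of all genes tested. Positions given beside gene names are RefSeq spans on GRCh38.p14. CTSB, a cysteine cathepsin with both activities, was measured at 36.3, 37.1 and 36.5 FPKM in the IGF2BP1-NC libraries and 69.4, 67.7 and 109.9 FPKM in the IGF2BP1-KD libraries. Libraries 1 and 2 of IGF2BP1-KD were close to each other and library 3 was well above them, and all 3 lay above the controls, for a log2 fold change of 1.16 (SE 0.20, edgeR adjusted p = 0.0113). CTSS (chr1:150730188-150765778), the cathepsin that trims the invariant chain of MHC class II in antigen-presenting cells, was measured at 2.94, 3.05 and 2.26 FPKM in the IGF2BP1-NC libraries and 4.72, 6.42 and 9.49 FPKM in the IGF2BP1-KD libraries. The groups did not overlap and the log2 fold change was 1.31 (SE 0.27, edgeR adjusted p = 0.0145). Without IGF2BP1-KD library 3 the values were 0.90 for CTSB (edgeR adjusted p = 2.56e-05) and 1.01 for CTSS (edgeR adjusted p = 0.00244). Both calls were lost without IGF2BP1-NC library 1 (edgeR adjusted p = 0.0676 for CTSB and 0.0686 for CTSS) and without IGF2BP1-NC library 3 (0.0508 and 0.0607).

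CTSH (chr15:78921058-78945046), an aminopeptidase, went the other way. It was measured at 30.6, 31.01 and 22.9 FPKM in the IGF2BP1-NC libraries and 13.98, 13.9 and 14.1 FPKM in the IGF2BP1-KD libraries. The IGF2BP1-KD libraries lay within a narrow range below all controls, and the log2 fold change was -1.02 (SE 0.11, edgeR adjusted p = 0.000144). CTSZ (chr20:58995185-59007254), a carboxypeptidase and the protease with the highest mean level, was measured at 119, 132 and 118 FPKM in the IGF2BP1-NC libraries and 90.99, 89.6 and 104 FPKM in the IGF2BP1-KD libraries, without overlap, and its log2 fold change was -0.38 (SE 0.075, edgeR adjusted p = 0.00382). The other proteases that rose were CTSL (0.86), CTSA (0.61), CTSF (0.60) and CTSD (0.46) on the log2 scale, and TPP1, a tripeptidyl peptidase (0.93). CTSL was not called without any 1 of the IGF2BP1-NC libraries (edgeR adjusted p up to 0.101), and TPP1 was not called without IGF2BP1-NC library 1 (edgeR adjusted p = 0.0713). CTSC, which activates serine proteases of granules, lay in a narrow range over all 6 libraries, at 19.5, 19.6 and 19.1 FPKM in IGF2BP1-NC and 19.7, 20.5 and 19.4 FPKM in IGF2BP1-KD, with a log2 fold change of 0.024 (SE 0.056, edgeR adjusted p = 0.775). CTSK and NAPSA were not called, and CTSE, CTSG, CTSO, CTSV, CTSW and LGMN were too low to test, with at most 21 counts in any library.

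**Figure D3:**
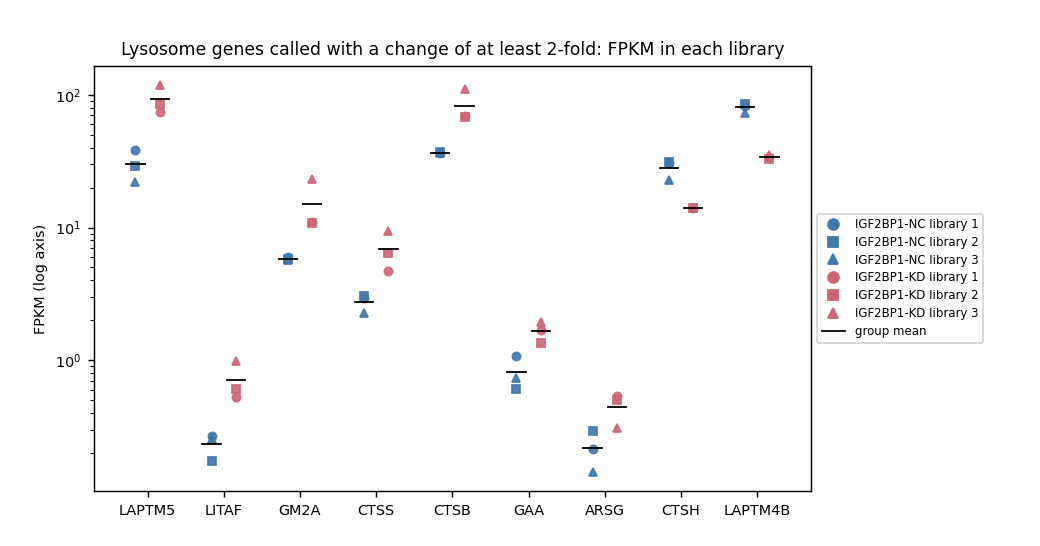
FPKM on a log axis of the 9 lysosome genes called with a change of at least 2-fold, with 1 point per library and a bar at each group mean. CTSH and LAPTM4B are lower in every IGF2BP1-KD library and the other 7 are higher, and the triangle of IGF2BP1-KD library 3 is the top point of its group for 6 of these 7 (ARSG is the exception).

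Glycosidases remove sugars from glycoproteins, glycolipids and glycosaminoglycans. All 17 were tested, and 9 rose and 8 were not called, with a median log2 fold change of 0.39. GAA (chr17:80101581-80119881) was measured at 1.08, 0.612 and 0.733 FPKM in the IGF2BP1-NC libraries and 1.69, 1.36 and 1.96 FPKM in the IGF2BP1-KD libraries. These are low levels, the groups did not overlap, and the log2 fold change was 1.03 (SE 0.23, edgeR adjusted p = 0.00783). NEU1 (chr6:31857659-31862821), the lysosomal sialidase, which forms a complex with CTSA, was the glycosidase with the highest mean level, at 44.9, 52.1 and 61.1 FPKM in the IGF2BP1-NC libraries and 88.3, 88.7 and 127 FPKM in the IGF2BP1-KD libraries. Every IGF2BP1-KD library exceeded every control and the log2 fold change was 0.93 (SE 0.19, edgeR adjusted p = 0.0179). The NEU1 call was lost without IGF2BP1-NC library 1 or library 2 (edgeR adjusted p = 0.0610 and 0.0584).

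Glycosidases that rose also included AGA (0.76), which frees asparagine from sugar chains, and IDUA (0.69), which cuts glycosaminoglycans. GALC and GLB1 rose as well. GALC was 0.35 without IGF2BP1-KD library 3 in place of 0.52 on the log2 scale, and its call was lost without IGF2BP1-NC library 2 (edgeR adjusted p = 0.0620). GLB1, the lysosomal beta-galactosidase, rose by less (log2 fold change 0.25, SE 0.082, edgeR adjusted p = 0.0417), and its call was lost on leaving out any 1 library other than IGF2BP1-NC library 3 (edgeR adjusted p up to 0.154). HYAL1, GUSB, FUCA1, HEXA, NAGLU, MAN2B1, GLA and MANBA were not called, and their log2 fold changes lay between -0.22 for MANBA and 0.39 for HYAL1.

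Sulfatases remove sulfate groups, and SUMF1 encodes the enzyme of the endoplasmic reticulum that activates them. Of these 8 genes, all tested, 5 rose and 3 were not called. ARSG (chr17:68259170-68452019), arylsulfatase G, was measured at 0.215, 0.292 and 0.144 FPKM in the IGF2BP1-NC libraries and 0.534, 0.500 and 0.307 FPKM in the IGF2BP1-KD libraries. Its level was under 1 FPKM in every library, the lowest IGF2BP1-KD value (library 3) was just above the highest control value, and the log2 fold change was 1.03 (SE 0.31, edgeR adjusted p = 0.0282). The ARSG call was lost when library 3 of IGF2BP1-NC (edgeR adjusted p = 0.0849) or library 1 or 2 of IGF2BP1-KD (0.109 and 0.0963) was left out. IDS, iduronate 2-sulfatase, was measured at 4.19, 3.62 and 3.74 FPKM in the IGF2BP1-NC libraries and 6.23, 6.06 and 8.90 FPKM in the IGF2BP1-KD libraries, without overlap, for a log2 fold change of 0.87 (SE 0.14, edgeR adjusted p = 0.00288). ARSA (0.44) and ARSB (0.50) also rose on the log2 scale, though ARSA was not called without IGF2BP1-KD library 1 (edgeR adjusted p = 0.0673) and ARSB not without IGF2BP1-KD library 2 (edgeR adjusted p = 0.0630). SUMF1, GALNS and SGSH were not called, with log2 fold changes of 0.33, 0.32 and -0.47.

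Enzymes of lipid breakdown and their activators, the saposins and the GM2 activator, numbered 9, of which 7 were tested and 4 rose. PSAP (chr10:71816298-71851251), the precursor of the saposins, was measured at 251, 265 and 255 FPKM in the IGF2BP1-NC libraries and 325, 321 and 413 FPKM in the IGF2BP1-KD libraries. All IGF2BP1-KD libraries were above all controls, and the log2 fold change was 0.45 (SE 0.092, edgeR adjusted p = 0.00575). GM2A (chr5:151253185-151270440), the GM2 ganglioside activator that presents the lipid for breakdown, was measured at 5.96, 5.75 and 5.67 FPKM in the IGF2BP1-NC libraries and 11.1, 10.8 and 23.2 FPKM in the IGF2BP1-KD libraries. The controls were close to each other, IGF2BP1-KD libraries 1 and 2 were close to each other above them, and library 3 was far above both, for a log2 fold change of 1.36 (SE 0.36, edgeR adjusted p = 0.0482). Without IGF2BP1-KD library 3 the log2 fold change was 0.91 (edgeR adjusted p = 0.000134). The GM2A call was lost without IGF2BP1-NC library 1, 2 or 3 or IGF2BP1-KD library 1 (edgeR adjusted p = 0.141, 0.116, 0.142 and 0.0516).

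PPT1, which removes palmitate from proteins, was measured at 74.5, 80.8 and 83.3 FPKM in the IGF2BP1-NC libraries and 109.6, 114 and 121 FPKM in the IGF2BP1-KD libraries. The groups were well apart, and the log2 fold change was 0.52 (SE 0.068, edgeR adjusted p = 0.000371). SMPD1, the acid sphingomyelinase, also rose (log2 fold change 0.44, SE 0.11, edgeR adjusted p = 0.0146). ASAH1, PLA2G15 and PPT2 were not called, with log2 fold changes of 0.27, 0.28 and 0.24, and LIPA and PSAPL1 were too low to test. The last hydrolases, 4 nucleases and phosphatases, had no call among the 3 tested with edgeR, where ACP2 alone had an unadjusted p under 0.05, while DESeq2 called ACP5 and limma on FPKM called ACP2. DNASE2, the acid DNase, was the most abundant of them at 26.7, 19.1 and 17.1 FPKM in the IGF2BP1-NC libraries and 18.96, 20.03 and 24.1 FPKM in the IGF2BP1-KD libraries, with overlapping groups and a log2 fold change of -0.0052 (SE 0.16, edgeR adjusted p = 0.985), which was above 0 under several other settings. ACP5, the tartrate-resistant acid phosphatase, is described because of its values: it was measured at 0.628, 1.17 and 0.992 FPKM in the IGF2BP1-NC libraries and 1.85, 1.99 and 9.91 FPKM in the IGF2BP1-KD libraries. It had the highest log2 fold change of all lysosome genes tested, 2.28 (SE 0.89, edgeR adjusted p = 0.128), which was not called and rested on IGF2BP1-KD library 3, and without that library it was 1.03 (edgeR adjusted p = 0.0274). ACP2 was not called, and DNASE2B had no count in any library.

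Membrane proteins and transporters had members that moved strongly in both directions. LAPTM5 (chr1:30732469-30757774), a lysosomal transmembrane protein of hematopoietic cells, was measured at 38.2, 29.2 and 22.1 FPKM in the IGF2BP1-NC libraries and 74.6, 85.1 and 119 FPKM in the IGF2BP1-KD libraries. All IGF2BP1-KD libraries lay far above all controls, and the log2 fold change was 1.63 (SE 0.27, edgeR adjusted p = 0.0136). LAPTM4B, a relative with a role in endosomal signalling, was measured at 82.99, 85.5 and 73.1 FPKM in the IGF2BP1-NC libraries and 33.8, 33.1 and 35.1 FPKM in the IGF2BP1-KD libraries. Here the controls were all far above the IGF2BP1-KD libraries, and the log2 fold change was -1.25 (SE 0.070, edgeR adjusted p = 3.03e-06). The third relative, LAPTM4A, was measured at 43.98, 44.3 and 40.4 FPKM in IGF2BP1-NC and 39.9, 38.99 and 40.99 FPKM in IGF2BP1-KD, and its log2 fold change was -0.11 (SE 0.066, edgeR adjusted p = 0.220). Thus 1 gene of this family rose, 1 fell and 1 was not called.

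**Figure D4:**
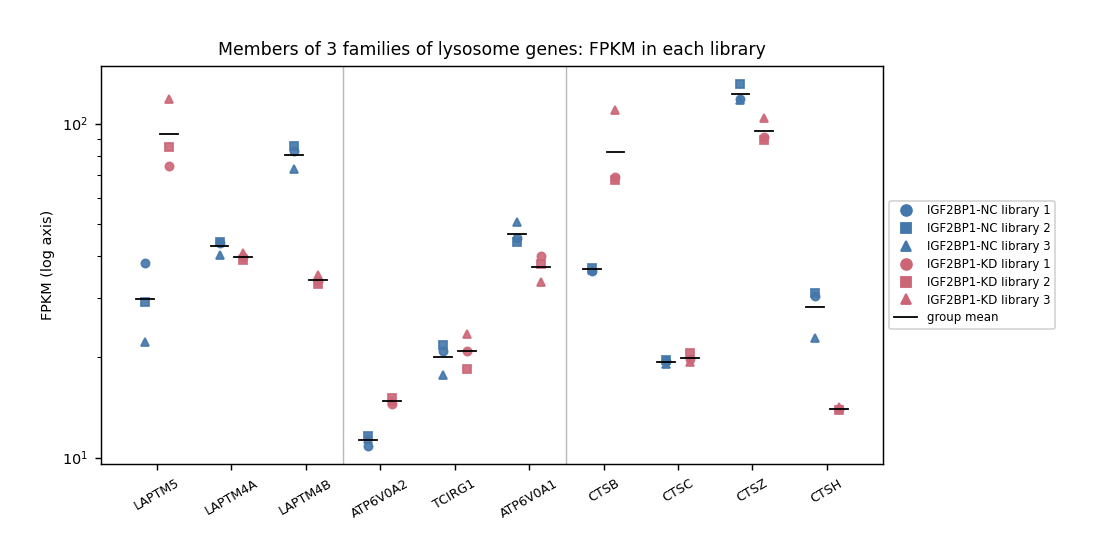
FPKM on a log axis of 3 families within the lysosome genes (LAPTM genes, V-ATPase a subunits and 4 cathepsins), with 1 point per library and a bar at each group mean. Each family holds a gene called higher in IGF2BP1-KD (LAPTM5, ATP6V0A2, CTSB), a gene called lower (LAPTM4B, ATP6V0A1, CTSZ and CTSH) and a gene not called (LAPTM4A, TCIRG1, CTSC).

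LITAF (chr16:11547722-11640317), a membrane-associated protein of late endosomes, was measured at 0.268, 0.173 and 0.256 FPKM in the IGF2BP1-NC libraries and 0.532, 0.605 and 0.986 FPKM in the IGF2BP1-KD libraries. Although low throughout, with at most 74 counts in a library, it did not overlap between groups, and its log2 fold change was 1.59 (SE 0.32, edgeR adjusted p = 0.00433). CD63 (chr12:55723535-55730041), a tetraspanin of late endosomes, lysosomes and granules, was the most abundant membrane protein gene, at 125, 162 and 157 FPKM in the IGF2BP1-NC libraries and 214, 222 and 285 FPKM in the IGF2BP1-KD libraries. It was higher in each IGF2BP1-KD library than in any control, with a log2 fold change of 0.69 (SE 0.14, edgeR adjusted p = 0.0125). LAMP2, a glycoprotein of the lysosomal membrane, was measured at 11.3, 10.8 and 10.97 FPKM in IGF2BP1-NC and 13.8, 14.6 and 16.6 FPKM in IGF2BP1-KD without overlap (log2 fold change 0.44, SE 0.071, edgeR adjusted p = 0.00134). LAMP1 was measured at 38.5, 49.9 and 52.8 FPKM in IGF2BP1-NC and 64.5, 59.7 and 69.6 FPKM in IGF2BP1-KD, also without overlap (log2 fold change 0.44, SE 0.12, edgeR adjusted p = 0.0273), but its call was lost when library 2 of IGF2BP1-NC or library 1 or 3 of IGF2BP1-KD was left out, with an edgeR adjusted p of up to 0.0965.

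NPC2 and NPC1 hand cholesterol to each other on its way out of the lysosome, and they moved in opposite directions. NPC2, the soluble carrier, was measured at 15.9, 20.1 and 21.5 FPKM in the IGF2BP1-NC libraries and 25.4, 26.7 and 33.8 FPKM in the IGF2BP1-KD libraries, without overlap, for a log2 fold change of 0.56 (SE 0.14, edgeR adjusted p = 0.0158). NPC1, the membrane protein, was measured at 11.3, 9.34 and 10.3 FPKM in the IGF2BP1-NC libraries and 9.31, 8.34 and 8.35 FPKM in the IGF2BP1-KD libraries. The highest IGF2BP1-KD value was just under the lowest control value, and the log2 fold change was -0.26 (SE 0.081, edgeR adjusted p = 0.0324). The NPC1 call was lost when library 1 or 3 of IGF2BP1-NC (edgeR adjusted p = 0.0546 and 0.0750) or library 2 or 3 of IGF2BP1-KD (0.121 and 0.0996) was left out. CLN3 rose (0.39 on the log2 scale), and CD164, a sialomucin, fell (-0.23), the latter not called without IGF2BP1-KD library 1 (edgeR adjusted p = 0.0595). The other 15 membrane protein genes were not called. They included SLC11A1, ABCA2, CD68, LAMP3, CTNS, HGSNAT, MFSD8, ENTPD4, SLC11A2, LAPTM4A, MCOLN1, SLC17A5, SCARB2 and ABCB9, with log2 fold changes from -0.29 for ABCB9 to 0.84 for SLC11A1. MCOLN1, whose promoter holds 2 copies of the core, was measured at 9.36, 10.9 and 12.8 FPKM in IGF2BP1-NC and 10.3, 9.96 and 10.5 FPKM in IGF2BP1-KD.

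The V-ATPase genes with the Lysosome term encode mostly the membrane sector V0. Of the a subunits, which anchor the pump's stator and differ by compartment, ATP6V0A2 (chr12:123712353-123761755) was measured at 10.8, 11.6 and 11.3 FPKM in the IGF2BP1-NC libraries and 14.5, 15.1 and 14.8 FPKM in the IGF2BP1-KD libraries. The groups were far apart for their spread, and the log2 fold change was 0.38 (SE 0.064, edgeR adjusted p = 0.00164). ATP6V0A1 (chr17:42458878-42522579) was measured at 45.3, 44.1 and 50.8 FPKM in the IGF2BP1-NC libraries and 40.2, 37.97 and 33.6 FPKM in the IGF2BP1-KD libraries. It was lower in every IGF2BP1-KD library, with a log2 fold change of -0.34 (SE 0.082, edgeR adjusted p = 0.0108). TCIRG1, the a3 subunit, was measured at 20.8, 21.8 and 17.6 FPKM in IGF2BP1-NC and 20.8, 18.4 and 23.5 FPKM in IGF2BP1-KD and overlapped, with a log2 fold change of 0.049 (SE 0.10, edgeR adjusted p = 0.750), and ATP6V0A4 had no count in any library.

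ATP6V1H, a regulatory subunit of the V1 sector, was measured at 15.1, 15.03 and 14.4 FPKM in the IGF2BP1-NC libraries and 19.1, 19.4 and 21.4 FPKM in the IGF2BP1-KD libraries. Again the groups did not overlap, and the log2 fold change was 0.42 (SE 0.074, edgeR adjusted p = 0.00220). ATP6AP1, an accessory protein, rose (log2 fold change 0.25, SE 0.057, edgeR adjusted p = 0.00851). ATP6V0B, a proteolipid of the rotor ring, rose as well (log2 fold change 0.30, SE 0.090, edgeR adjusted p = 0.0322), but its value was 0.19 without IGF2BP1-NC library 1 and its call was lost without any 1 of the IGF2BP1-KD libraries (edgeR adjusted p up to 0.107). ATP6V0C, the other proteolipid and the most abundant V-ATPase gene of the list, was measured at 122, 144 and 134 FPKM in the IGF2BP1-NC libraries and 135, 132 and 133 FPKM in the IGF2BP1-KD libraries. Its groups overlapped and its log2 fold change was -0.0090 (SE 0.072, edgeR adjusted p = 0.939), with a sign that differed between settings. ATP6V0D1 was not called, and ATP6V0D2 had no count. The soluble V1 subunits that lack the term numbered 12, of which 8 were tested: ATP6V1E2 (0.90), ATP6V1C1 (0.46) and ATP6V1E1 (0.24) rose and ATP6V1A (-0.21) and ATP6V1B2 (-0.19) fell on the log2 scale.

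Sorting genes had the lowest median of the 4 classes. GNPTAB (chr12:101745499-101830959) encodes the catalytic subunits of the phosphotransferase that begins the mannose 6-phosphate tag, and it was measured at 7.42, 7.39 and 7.90 FPKM in the IGF2BP1-NC libraries and 10.5, 10.1 and 12.6 FPKM in the IGF2BP1-KD libraries. Every IGF2BP1-KD value was well above the controls, and the log2 fold change was 0.53 (SE 0.088, edgeR adjusted p = 0.00150). M6PR (chr12:8940361-8949645), the cation-dependent receptor that binds the tag, was measured at 37.5, 43.02 and 45.5 FPKM in the IGF2BP1-NC libraries and 54.8, 55.01 and 63.4 FPKM in the IGF2BP1-KD libraries. It too was higher in each IGF2BP1-KD library than in any control, with a log2 fold change of 0.45 (SE 0.088, edgeR adjusted p = 0.00420). GNPTG, the third subunit of the phosphotransferase, was measured at 14.1, 18.1 and 15.2 FPKM in IGF2BP1-NC and 16.5, 16.1 and 19.6 FPKM in IGF2BP1-KD, and NAGPA, which uncovers the tag, at 4.89, 7.82 and 8.40 FPKM in IGF2BP1-NC and 8.25, 7.80 and 8.11 FPKM in IGF2BP1-KD. Neither was called (edgeR adjusted p = 0.445 and 0.499). SORT1, a sorting receptor that needs no tag, was not called either (log2 fold change -0.068, SE 0.087, edgeR adjusted p = 0.593).

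Clathrin forms the coat of the carriers, and CLTA, a light chain and the sorting gene with the highest mean level, was measured at 86.00, 89.9 and 93.5 FPKM in the IGF2BP1-NC libraries and 93.6, 97.6 and 103 FPKM in the IGF2BP1-KD libraries. IGF2BP1-NC library 3 and IGF2BP1-KD library 1 were nearly equal, and its log2 fold change was 0.12 (SE 0.066, edgeR adjusted p = 0.207). CLTB, the other light chain, was measured at 21.4, 21.8 and 21.1 FPKM in the IGF2BP1-NC libraries and 18.6, 17.99 and 16.05 FPKM in the IGF2BP1-KD libraries. All IGF2BP1-KD values were below the controls, and the log2 fold change was -0.30 (SE 0.077, edgeR adjusted p = 0.0149). The CLTB call was lost without IGF2BP1-NC library 2 (edgeR adjusted p = 0.0540) or IGF2BP1-KD library 3 (0.0551). The heavy chains CLTC and CLTCL1 were not called, with log2 fold changes of 0.061 and 0.14.

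None of the 7 tested subunits of the AP-1 adaptor, which works between the Golgi and endosomes, was called, at an edgeR adjusted p of 0.0966 (AP1G2) or above. At an unadjusted p under 0.05 AP1G2 alone passed, and neither DESeq2 nor limma called any of them. AP-3, which carries membrane proteins to lysosomes, had 1 gene higher (AP3M1, 0.18) and 1 lower (AP3D1, -0.25) of 5 tested on the log2 scale. AP-4 had 1 of 4 lower: AP4S1 was measured at 1.33, 1.31 and 1.22 FPKM in IGF2BP1-NC and 0.960, 1.02 and 0.816 FPKM in IGF2BP1-KD, low and without overlap, with a log2 fold change of -0.48 (SE 0.15, edgeR adjusted p = 0.0303). Among the GGA adaptors, GGA3 rose (0.19 on the log2 scale) and GGA1 and GGA2 were not called. Several of these calls were lost when 1 library was left out, although no log2 fold change of a called gene changed sign. AP4S1 was not called without IGF2BP1-NC library 2 or any 1 of the IGF2BP1-KD libraries (edgeR adjusted p up to 0.0941), and AP3D1 was not called without IGF2BP1-KD library 2 (0.0584). With 1 library left out, AP3M1 was called in 1 fit of 6, the one without IGF2BP1-NC library 1, and GGA3 in 0 of 6 (edgeR adjusted p up to 0.152). In all, 2 sorting genes were higher without IGF2BP1-NC library 2 or 3 or any 1 of the IGF2BP1-KD libraries, and 1 was lower without IGF2BP1-NC library 2 or IGF2BP1-KD library 2 or 3.

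Other lysosome genes, which carry no Lysosome term in the tables, were counted beside them. Of 57 such genes 49 were tested, and 15 were higher (30.6%) and 3 lower (6.12%), beside 13.7% and 14.5% of all genes tested. Their median log2 fold change was 0.11. Among the Ragulator, Rag and folliculin genes, through which nutrients at the lysosome reach mTORC1, 4 of 11 tested rose. RRAGC, a Rag GTPase, was measured at 8.49, 11.3 and 12.9 FPKM in the IGF2BP1-NC libraries and 20.4, 20.2 and 23.2 FPKM in the IGF2BP1-KD libraries. The groups were far apart, and the log2 fold change was 0.95 (SE 0.14, edgeR adjusted p = 0.00184). The other 3 were FNIP2 (0.58), FLCN (0.44) and FNIP1 (0.38) on the log2 scale, the folliculin gene and its partners, while the 5 LAMTOR genes were not called.

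Of 11 lysosomal channels and transporters without the term, OSTM1 (0.60), SLC38A9 (0.52), TPCN1 (0.47) and SLC36A1 (0.41) rose and MFSD12 (-0.24) fell on the log2 scale. Among 10 further soluble proteins, 8 of them tested, 3 rose. CREG1, a secreted glycoprotein that reaches lysosomes, was measured at 128, 131 and 131 FPKM in the IGF2BP1-NC libraries and 186, 198 and 225 FPKM in the IGF2BP1-KD libraries, without overlap (log2 fold change 0.63, SE 0.072, edgeR adjusted p = 0.000178). GRN, progranulin, was measured at 35.00, 39.5 and 36.5 FPKM in IGF2BP1-NC and 53.6, 47.8 and 60.7 FPKM in IGF2BP1-KD, also without overlap (log2 fold change 0.54, SE 0.089, edgeR adjusted p = 0.00171), and PLBD2 rose too (0.33). Of the 8 genes of the HOPS tethering complex and late endosome fusion, PLEKHM1 rose (0.39) and the other 7 were not called. The share that rose was 12.5%, beside 13.7% of all genes tested.

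For all 40 lysosome genes that rose, each IGF2BP1-KD library was above each control in normalised CPM. The 40 were called from these same libraries, so this separation adds no support to the calls. The IGF2BP1-KD libraries were not equal. IGF2BP1-KD library 3 had the highest value of the 3 for 34 of the 40 lysosome genes that rose (85.0%), while it was the highest for 936 of the 1648 genes called higher among all genes (56.8%). PRG2, an eosinophil granule protein, was also highest in IGF2BP1-KD library 3, at 5.99, 10.2 and 7.05 CPM in the IGF2BP1-NC libraries and 82.3, 97.01 and 229.5 CPM in the IGF2BP1-KD libraries, and MS4A3, a gene of granulocyte precursors, was measured at 27.5, 24.7 and 17.4 CPM in the IGF2BP1-NC libraries and 112, 119 and 254 CPM in the IGF2BP1-KD libraries. Both rose more than any lysosome gene called, and among the lysosome genes called, the FPKM of library 3 was highest relative to the other IGF2BP1-KD libraries for GM2A, LITAF and CTSB. Among all lysosome genes tested it was highest for ACP5, which was not called. Of the 49 lysosome genes called, 27 kept their call in all 15 alternative fits. Among them were GAA, PSAP, PPT1, IDS, CTSH, CTSZ, CD63, LAPTM4B, ATP6V0A2, ATP6V0A1, ATP6V1H, GNPTAB and M6PR. LITAF, ARSG and ARSB, with means under 1 FPKM, were not run in the 2 limma fits on FPKM, and LITAF kept its call in all others.

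Some values depend on how reads were assigned. Of the 122 genes, 41 overlap another protein-coding gene in RefSeq, 17 of them among the genes called, and 15 have a named pseudogene. Lysosome genes with values given here and a protein-coding neighbour in the same span include ARSG (SLC16A6, PRKAR1A and WIPI1), M6PR (PHC1), CD63 (RDH5), NPC1 (RMC1), NPC2 (SYNDIG1L), PPT1 (CAP1), CLTB (ARL10) and AP4S1 (STRN3). Those with named pseudogenes include GM2A, IDS, CTSL, LAMP1, M6PR and LAPTM4B. These overlaps are of whole gene spans, introns included and on either strand. Per the study's methods the libraries were made with a stranded kit, but the strand setting of the counting is not given in the sources used here. How many reads such pairs share was not measured, and these values are uncertain to that extent.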

How the data were processed

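RNA was sequenced in 3 libraries labelled IGF2BP1 negative control and 3 labelled IGF2BP1 knockdown, grouped by these labels. Per the study's methods the authors used Trimmomatic for trimming, HISAT2 for mapping to GRCh38 and HTSeq for counting, and they deposited raw counts per gene. The FPKM values deposited by the authors are described as made with Cufflinks and equal the count divided by a length and the library total. Tool versions, annotation release and strand setting are not given in the sources used here.

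Counts were tested with edgeR 4.0.16 in R 4.3.3 (TMM factors, filterByExpr, robust quasi-likelihood fit, two-sided), with Benjamini-Hochberg adjustment over the 11994 genes that passed the filter of 20030. FPKM served as levels, and no threshold was set on them in the main test. Alternatives were DESeq2 1.42.0, limma-voom and limma (3.58.1) on log2(FPKM + 1) or log2(FPKM + 0.1) for genes with a mean of at least 1 FPKM, other scalings and count filters, the replicate number as a block, and each library left out in turn. Total counts of 16885449 to 18112179 set the depth. The main edgeR fit, DESeq2, limma-voom, the replicate block and limma on FPKM were also run on simulated counts with known changes. The other alternatives were not run on simulated counts. Summaries used pandas 2.3.3 under Python 3.11.15, and plots matplotlib 3.10.9.

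The lysosome genes, their classes and the other lists were chosen with earlier results of these data known. Genes with full values are, in each of 8 classes, the gene with the highest mean FPKM and the 2 largest rises and 2 largest falls at an adjusted p under 0.05, every called gene with a change of at least 2-fold, and IGF2BP1. Genes with at most 3 counts in every library are named only (ATP6V0A4, ATP6V0D2, CTSW, DNASE2B and PSAPL1). Values given for ACP5, CTSC, GLB1, SMPD1, ATP6AP1, ATP6V0B, SORT1, LAMP1, LAMP2, NPC2, LAPTM4A, MCOLN1, TCIRG1, GNPTG, NAGPA and the genes outside the Lysosome term were chosen after their values were seen. A few members (5 of those tested) enter the counts, sums and medians but are not reported singly here, also where this rule would name them. Promoters are from RefSeq, and positions of genes are RefSeq GRCh38.p14 spans. The start used for a promoter can differ from the start of the gene span, and for CD63 and AP4M1 it lies inside the span.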

Additional observations from a re-analysis of the deposited data

How the results depend on the processing

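In the 9 alternatives that used all libraries, 36 to 43 lysosome genes were higher and 7 to 9 lower, and with 1 library left out 32 to 37 were higher and 6 to 9 lower. None of the 49 genes called changed sign in any alternative run for it, 27 kept their call in all 15, 29 in all 6 fits that left out 1 library and 36 in all 9 others (3, under 1 FPKM, were not run with limma on FPKM). Sorting genes higher numbered 2 without a filter on low counts and 2 with the replicate block, and with 1 library left out 2 to 3 were higher and 1 to 4 lower. Genes changed at least 2-fold numbered 5 with limma on log2(FPKM + 1), 5 with limma on log2(FPKM + 0.1), and 5 to 10 with 1 library left out. Same-numbered libraries gave no sign of pairing (correlations of -0.0943, -0.0013 and -0.111). With 3 libraries per group these values cannot exclude pairing, and the labels do not state it. The replicate block gave 36 genes higher and 9 lower, without LAPTM5 (edgeR adjusted p = 0.0906) and GM2A (edgeR adjusted p = 0.0560) among others.

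Signs reversed in at least 1 alternative for 15 genes that were not called, of which the naming rule covers ATP6V0C and DNASE2. ATP6V0C had a log2 fold change of 0.0032 with library-size scaling, 0.022 with upper-quartile factors, 0.0037 with at least 10 counts in every library, 0.0062 with limma on log2(FPKM + 1), 0.0063 on log2(FPKM + 0.1), and -0.080 to 0.059 with 1 library left out. DNASE2 had 0.0036, 0.024, 0.0071, 0.020 and 0.022 in the same settings, 0.012 with limma-voom, 0.0090 with the replicate block, and -0.13 to 0.19 with 1 library left out. The cause of these shifts was not tested. Depth limits the 14 genes that were not tested, each with at most 21 counts in a library.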
